A study of Mus musculus with 12 samples.

Results

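The dermal condensate and papilla identity genes described here are 6 genes, Sox2, Sox18, Foxd1, Prom1, Alpl and Corin, of the 22180 genes that had a probe set with a single gene symbol. They were chosen by name as markers of the condensate or papilla, and all 6 were measured. Expression was compared between 4 dermal fibroblast populations sorted from mouse back skin at postnatal day 2, with 3 arrays each. Dlk1+Sca1- cells are the study's reticular fibroblasts, CD26+ cells its papillary fibroblasts (gated as Sca1- too), and Dlk1+Sca1+ and Dlk1-Sca1+ cells its pre-adipocytes. GEO's labels give every sample as wild-type, whereas the study describes PdgfraH2BeGFP reporter mice, in which a green fluorescent histone is made from the Pdgfra gene, and a sort for fluorescent cells. Neither treatment nor gene deletion was given for any group. The gates described for these populations use CD26, Sca1 and Dlk1 and none of the 6 genes, although the study's antibody list also holds mouse CD133, the product of Prom1, without saying where it was used. Each population may mix several kinds of fibroblast.

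The dermal condensate is a cluster of fibroblasts that gathers under the epidermal placode when a hair follicle forms, and its cells go on to make the dermal papilla, which the hair bulb encloses and which signals to the hair matrix. Sox2, Sox18 and Foxd1 encode transcription factors that mark these cells, whereas Prom1, Alpl and Corin encode surface proteins or enzymes by which papillae are commonly recognised or isolated. At this age the first pelage is still growing in the back skin, so follicles with papillae lie within the dermis that was digested.

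The defining fibroblast markers Pdgfra and Col1a1 lay between 8.64 and 9.50 and between 12.19 and 12.56 on the log2 scale on every array. The mean of 10 fibroblast markers was 10.62 to 10.77 in Dlk1+Sca1- and 10.79 to 11.06 elsewhere. Of these, Pdgfra and Thy1 were lower in Dlk1+Sca1- than in CD26+ and Dlk1-Sca1+ (limma adjusted p under 0.05). Pdgfra means were 8.70 against 9.32 and 9.45, and Thy1 means 10.81 against 11.37 and 11.79. In these comparisons 0.654% and 0.343% of all genes were lower. Thy1 was lower than in Dlk1+Sca1+ too (mean 11.63). One Dlk1-Sca1+ array, replicate 3, was left out of all tests because it met the description of a sample that the study excluded without giving its number, so 11 arrays were fitted. Within Dlk1+Sca1-, replicate 3 stood apart from replicates 1 and 2 in the genes described here, and it is given on its own wherever a result rests on it. It kept the Dlk1 level of its group (9.90 against 9.78 and 10.11) but had more Dpp4, which encodes CD26 (9.20 against 7.92 and 8.30). Ly6a, which encodes Sca1, was not among the measured genes, so that part of the gate was not checked. The deposited values carry no detection call, so whether a dim gene was above background in a group is not known, and no fold is given for Sox2, Foxd1 or Prom1, whose differences are those of the deposited log2 values. The arrays measure bulk RNA, so fewer cells of a type and less RNA per cell cannot be told apart.

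The genes lie apart from each other in the genome, on 5 chromosomes of GRCm38.p6: Sox2 at chr3:34649995-34652461, Sox18 at chr2:181669837-181671640, Foxd1 at chr13:98354245-98356705, Prom1 at chr5:43993621-44102047, Alpl at chr4:137741731-137796384 and Corin at chr5:72299948-72504540. These spans are whole genes, exons and introns included. RefSeq promoter windows matched 5 of the 6 genes, all but Sox18. The 250 bases before the start of Sox2, Foxd1, Alpl and Corin are printed because Alpl and Corin had the most alike levels of any pair while Foxd1 was the least like the rest. Capitals mark the GC box, GGGCGG on one strand or CCGCCC on the other, which may overlap itself as it does in Alpl.
Sox2, chr3:34649745-34649994, plus strand: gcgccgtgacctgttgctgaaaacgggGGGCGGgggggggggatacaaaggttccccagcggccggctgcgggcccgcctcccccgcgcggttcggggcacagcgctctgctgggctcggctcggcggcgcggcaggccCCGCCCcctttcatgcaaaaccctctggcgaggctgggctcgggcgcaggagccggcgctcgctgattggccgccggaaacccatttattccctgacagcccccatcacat
Foxd1, chr13:98353995-98354244, plus strand: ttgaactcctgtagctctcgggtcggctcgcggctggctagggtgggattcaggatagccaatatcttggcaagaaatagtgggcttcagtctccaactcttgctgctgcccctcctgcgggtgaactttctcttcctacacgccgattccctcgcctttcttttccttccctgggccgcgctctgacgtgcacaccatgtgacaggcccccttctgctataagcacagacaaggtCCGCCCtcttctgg
Alpl, chr4:137796385-137796634, minus strand: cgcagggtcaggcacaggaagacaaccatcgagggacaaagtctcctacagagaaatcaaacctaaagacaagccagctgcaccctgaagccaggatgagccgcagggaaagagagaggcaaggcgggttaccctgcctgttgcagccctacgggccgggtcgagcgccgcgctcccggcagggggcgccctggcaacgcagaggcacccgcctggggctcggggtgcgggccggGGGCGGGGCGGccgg
Corin, chr5:72504541-72504790, minus strand: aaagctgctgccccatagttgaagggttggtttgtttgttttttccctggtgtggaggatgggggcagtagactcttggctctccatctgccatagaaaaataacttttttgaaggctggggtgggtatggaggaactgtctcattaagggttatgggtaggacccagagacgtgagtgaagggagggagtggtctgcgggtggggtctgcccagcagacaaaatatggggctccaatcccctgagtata

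Promoter base composition differed among these genes. The window of Sox2, which lies inside the span of the noncoding gene Sox2ot, held 27 CpG dinucleotides and that of Alpl held 20, both above the upper quartile of 16 over all 32851 RefSeq windows of the same length. Foxd1 had 12 and Corin had 2, against a median of 6 and a lower quartile of 2 for all windows. A GC box was matched 2 times in Sox2, 2 times in Alpl, once in Foxd1 and not in Corin, and 32.7% of all windows held at least 1. The window of the upstream start of Prom1, which lies within the Prom1 gene, held 1 GC box and 9 CpG. Neither the TCF/LEF core CTTTGA (13.8% of all windows) nor the SOX core ATTGT (27.7% of all windows), searched on both strands, was found in any of the 7 windows of the 5 genes. TATAAA (12.4% of all windows) was matched only in the window of the downstream Alpl start. These matches describe letters in short windows and were not tested for binding. Only the exact letters given were searched, so variant forms of the TCF/LEF and SOX cores were not looked for.

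Sox2, an SRY-box factor of the condensate that also marks Merkel cells and Schwann cell precursors, was raised on only some Dlk1+Sca1- arrays. Its log2 values were 5.42 and 4.74 on Dlk1+Sca1- replicates 1 and 2 and 3.44 on replicate 3. They were 3.30, 3.52 and 3.22 in CD26+, 3.44, 3.91 and 2.90 in Dlk1+Sca1+, and 3.34 on both fitted Dlk1-Sca1+ arrays. Replicates 1 and 2 of Dlk1+Sca1- thus lay above every other array, whereas replicate 3 lay within the range of the other populations, below 2 of their 8 fitted arrays. The Dlk1+Sca1- mean was 4.53 ± 1.01 (SD, n = 3), the widest spread of any of the 6 genes in any group. The log2 difference was 1.19 ± 0.40 (SE) from CD26+ (limma adjusted p = 0.234), 1.12 ± 0.40 from Dlk1+Sca1+ (adjusted p = 0.283) and 1.19 ± 0.45 from Dlk1-Sca1+ (adjusted p = 0.306), so none passed. The other 3 groups had means of 3.34 to 3.41, and no pair of them differed by more than 0.07.

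Sox18, an SRY-box factor best known in endothelium and needed in mice for a normal coat, was high in Dlk1+Sca1- cells and next highest in Dlk1-Sca1+ cells. The log2 values were 8.54, 8.55 and, on replicate 3, 7.45 in Dlk1+Sca1-. They were 7.54 and 7.08 in Dlk1-Sca1+, 6.86, 6.89 and 5.71 in CD26+, and 6.07, 6.10 and 5.95 in Dlk1+Sca1+. All Dlk1+Sca1- arrays were above those of CD26+ and Dlk1+Sca1+, but replicate 3 fell between the Dlk1-Sca1+ arrays. Sox18 was higher in Dlk1+Sca1- than in CD26+ by 1.69 ± 0.34 (log2, SE), a 3.24-fold difference (limma adjusted p = 0.032), and than in Dlk1+Sca1+ by 2.14 ± 0.34, or 4.41-fold (adjusted p = 0.00887). Against Dlk1-Sca1+ the difference was 0.87 ± 0.38 (adjusted p = 0.378), with a 95% interval from 0.05 to 1.69. Dlk1+Sca1+ was below Dlk1-Sca1+ by a log2 difference of -1.27 ± 0.38 that did not pass (adjusted p = 0.173), nor did the neighbours in the order of levels, CD26+ and Dlk1+Sca1+, differ past the threshold.

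Foxd1, a forkhead factor known from kidney stroma as well as from condensates, was higher on the arrays of both Sca1- populations than on those of the Sca1+ populations. Its log2 values were 5.25, 5.76 and, on replicate 3, 5.58 in Dlk1+Sca1-, and 5.17, 5.82 and 5.22 in CD26+. They were 4.62, 3.97 and 4.66 in Dlk1+Sca1+ and 4.50 and 4.91 in Dlk1-Sca1+. Every array of either Sca1- population lay above every fitted array of either Sca1+ population. Relative to Dlk1+Sca1+, Foxd1 was higher in Dlk1+Sca1- by 1.11 ± 0.24 (log2, SE; limma adjusted p = 0.0423) and in CD26+ by 0.99 ± 0.24 (adjusted p = 0.0359). The differences from Dlk1-Sca1+ were 0.82 ± 0.27 (adjusted p = 0.217) and 0.70 ± 0.27 (adjusted p = 0.796). Between Dlk1+Sca1- and CD26+ it differed by 0.12 ± 0.24 with a 95% interval from -0.39 to 0.64, the smallest difference of any of the 6 genes in that comparison.

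**Figure D1:**
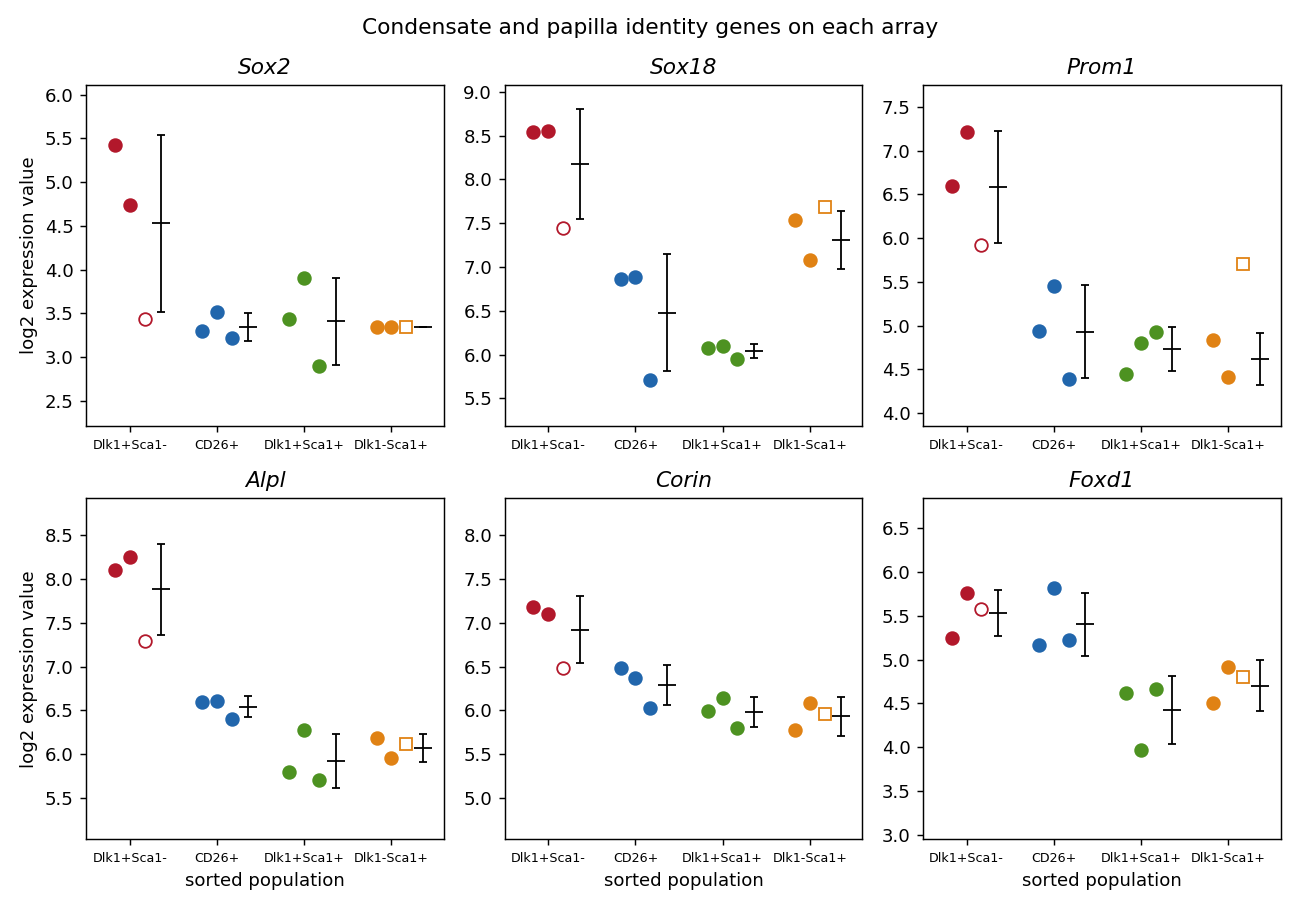
Log2 expression value of each of the 6 genes (y axis, each panel on its own range of equal height) on every array of the 4 sorted populations (x axis). Points are arrays, the open circle is Dlk1+Sca1- replicate 3, the open square is the Dlk1-Sca1+ array left out of the fit, and bars are the mean and SD of the fitted arrays. The open circle for Sox2 sits at 3.44, among the other populations, while that for Prom1 at 5.92 and Alpl at 7.29 sits above all fitted arrays of the other populations.

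Prom1 encodes CD133, a membrane glycoprotein used to isolate papilla cells, and was higher in Dlk1+Sca1- than in each other population. Its log2 values in Dlk1+Sca1- were 6.60, 7.21 and, on replicate 3, 5.92. They were 4.94, 5.45 and 4.39 in CD26+, 4.45, 4.80 and 4.93 in Dlk1+Sca1+, and 4.84 and 4.41 in Dlk1-Sca1+. No Dlk1+Sca1- array overlapped with a fitted array of another group. Prom1 was higher by 1.66 ± 0.32 (log2, SE) than in CD26+ (limma adjusted p = 0.0268), by 1.85 ± 0.32 than in Dlk1+Sca1+ (adjusted p = 0.013) and by 1.96 ± 0.36 than in Dlk1-Sca1+ (adjusted p = 0.0322). The other 3 groups had means of 4.62 to 4.93, whose differences did not pass. The exception was the unfitted Dlk1-Sca1+ array, with a Prom1 value of 5.70 that was closer to the Dlk1+Sca1- arrays than to its own group. With that array added to the fit, Prom1 passed against Dlk1+Sca1+ (adjusted p = 0.0362) but no longer against CD26+ (adjusted p = 0.0703) or Dlk1-Sca1+ (adjusted p = 0.0976).

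Alpl encodes tissue-nonspecific alkaline phosphatase, whose activity is the classical stain of the papilla, and had the lowest adjusted p of the 6 genes in each of the 3 comparisons. Its log2 values were 8.10, 8.25 and, on replicate 3, 7.29 in Dlk1+Sca1-. CD26+ arrays gave 6.60, 6.61 and 6.40, Dlk1+Sca1+ arrays 5.79, 6.28 and 5.70, and Dlk1-Sca1+ arrays 6.18 and 5.95. Even the lowest Dlk1+Sca1- array exceeded the highest of the others, a CD26+ array. Alpl was higher in Dlk1+Sca1- by 1.34 ± 0.24 (log2, SE) than in CD26+ (2.54-fold; limma adjusted p = 0.0184), by 1.96 ± 0.24 than in Dlk1+Sca1+ (3.88-fold; adjusted p = 0.00166) and by 1.81 ± 0.27 than in Dlk1-Sca1+ (3.52-fold; adjusted p = 0.0114). A dimmer probe set for Alpl gave 6.85, 6.98 and 6.30 in Dlk1+Sca1- and 5.44 to 6.04 on the other 9 arrays, so the separation held on a separate set of probes. CD26+ was second in the order of means, and its difference from Dlk1+Sca1+ of 0.61 ± 0.24 did not pass (adjusted p = 0.243).

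Corin, a transmembrane serine protease that processes natriuretic peptide in the heart and acts in the mouse papilla on coat colour, was also highest in Dlk1+Sca1- and next highest in CD26+, with smaller differences than Alpl. Dlk1+Sca1- arrays gave log2 values of 7.18, 7.10 and, on replicate 3, 6.48. CD26+ arrays gave 6.48, 6.37 and 6.03, Dlk1+Sca1+ arrays 5.99, 6.14 and 5.80, and Dlk1-Sca1+ arrays 5.77 and 6.08. Replicate 3 and the highest CD26+ array were equal to 2 decimals, and otherwise the Dlk1+Sca1- arrays were clear of the rest. The log2 difference was 0.63 ± 0.21 (SE) from CD26+ (limma adjusted p = 0.222), 0.95 ± 0.21 from Dlk1+Sca1+ (adjusted p = 0.0512) and 0.99 ± 0.24 from Dlk1-Sca1+ (adjusted p = 0.095), all short of the threshold. The remaining groups differed from each other by at most 0.37.

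Counted over the 6 genes, 3 (Sox18, Prom1, Alpl) were higher in Dlk1+Sca1- than in CD26+, against 0.442% of all 22180 genes, and none was lower (0.654% of all genes). Against Dlk1+Sca1+, 4 were higher (Sox18, Foxd1, Prom1, Alpl), against 0.586% of all genes, with none lower (0.649%). Against Dlk1-Sca1+, 2 were higher (Prom1, Alpl), against 0.248% of all genes, with none lower (0.343%). These comparisons share the Dlk1+Sca1- arrays and are not independent of each other. The median log2 difference of the 6 genes was 1.26, 1.49 and 1.09 in these comparisons, where the median of all genes was between 0.00 and 0.01. In 3 of the 6 genes (Prom1, Alpl, Corin) all 3 Dlk1+Sca1- arrays lay above every other fitted array, an order seen in 1.48% of all genes. The genes were taken up with earlier results of these data known, so these shares are descriptions.

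Differences among the other 3 populations were few. Foxd1 was the only one of the 6 genes to pass between CD26+ and Dlk1+Sca1+, where 2.05% of all genes were higher in CD26+ and 1.68% were lower. By limma none passed between CD26+ and Dlk1-Sca1+ (2 of 6 at an unadjusted p under 0.05, Foxd1 higher in CD26+ and Sox18 lower), where 0.00902% of all genes were higher and 0.0766% lower in CD26+. None passed between Dlk1+Sca1+ and Dlk1-Sca1+ either (1 of 6 at an unadjusted p under 0.05, Sox18). There 0.537% of all genes were higher and 0.649% lower in Dlk1+Sca1+. The shares of all genes in this paragraph are at the adjusted threshold, and none was counted at the unadjusted p. A fit to only the pair of groups compared did not call Foxd1 in CD26+ against Dlk1+Sca1+ (adjusted p = 0.057) and called Sox18 between Dlk1+Sca1+ and Dlk1-Sca1+ (adjusted p = 0.0407).

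**Figure D2:**
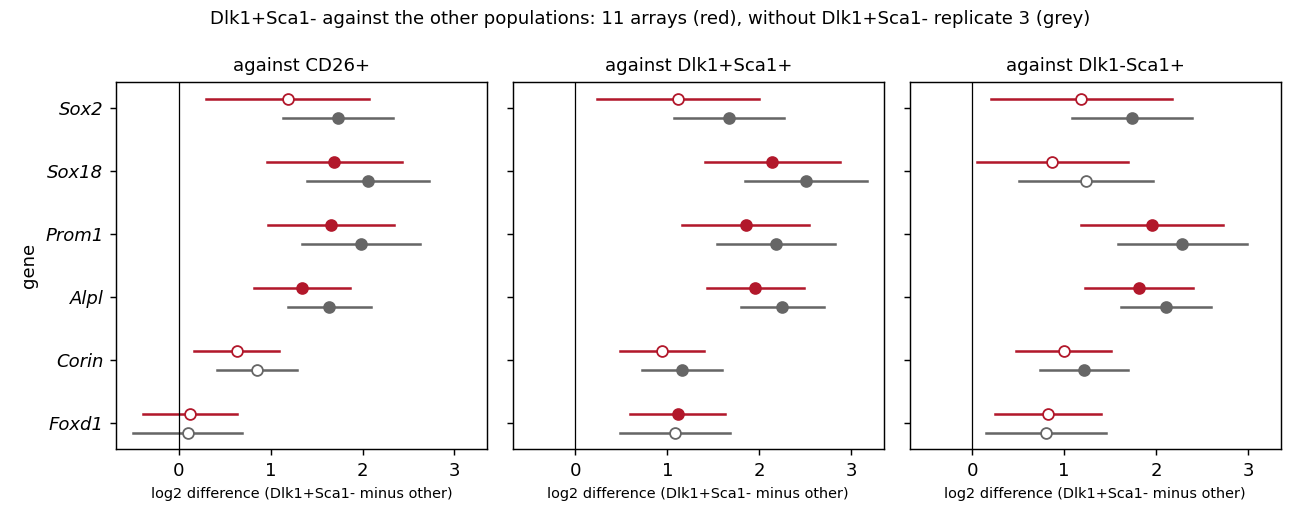
Log2 difference of Dlk1+Sca1- minus each other population (x axis, 1 panel per population) for the 6 genes (y axis), with 95% intervals from limma; filled points passed an adjusted p of 0.05. Red is the fit to 11 arrays and grey the fit without Dlk1+Sca1- replicate 3, in which Sox2 passed in all 3 panels at differences of 1.67 to 1.74.

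Several calls depended on single arrays. Against CD26+, Alpl held in 6 of 11 fits that each left out 1 array (adjusted p 0.00177 to 0.0837), Prom1 in 7 (0.00564 to 0.122) and Sox18 in 4 (0.00531 to 0.135). All 3 were lost without CD26+ replicate 1 or 3 or Dlk1+Sca1- replicate 1 or 2, Alpl also without CD26+ replicate 2, and Sox18 also without any 1 of the Dlk1+Sca1+ arrays. Against Dlk1+Sca1+, Alpl held in all 11 fits (adjusted p 0.000171 to 0.0123). Sox18 held in 10 and was lost without Dlk1+Sca1- replicate 1 (adjusted p up to 0.0515), and Prom1 held in 9 and was lost without that array or Dlk1+Sca1+ replicate 1 (up to 0.0648). Foxd1 held in 1 of 11 fits against Dlk1+Sca1+ (adjusted p up to 0.128) and was lost without each array other than CD26+ replicate 2. In CD26+ against Dlk1+Sca1+ it held in 5 fits, being lost without each array of either group (adjusted p up to 0.146). Against Dlk1-Sca1+, Alpl held in 9 fits and Prom1 in 5, and both were lost without either of the Dlk1-Sca1+ arrays, which leaves that group with 1 array that is assumed to vary like those of the other groups (adjusted p up to 0.133 and 0.256). Prom1 was lost there without CD26+ replicate 1, Dlk1+Sca1- replicate 1 or 2, or Dlk1+Sca1+ replicate 2 as well. The direction was kept in each of these fits.

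Replicate 3 of Dlk1+Sca1- was the lowest of its group in 5 of the 6 genes, Foxd1 being the exception. This was not particular to that group: CD26+ replicate 3 was the lowest of its group in the same 5 genes, and Dlk1+Sca1+ replicate 3 in 4 of them, all but Prom1. The median over the 6 genes of the array minus the mean of the other 2 arrays was -0.93 for replicate 3 of Dlk1+Sca1-, -0.34 for that of CD26+ and -0.20 for that of Dlk1+Sca1+. That of Dlk1+Sca1- was below the mean of replicates 1 and 2 by a log2 difference of -1.64 in Sox2, -1.10 in Sox18, -0.98 in Prom1, -0.88 in Alpl and -0.66 in Corin, and differed by 0.08 in Foxd1. Relative to the mean of the 8 fitted arrays of the other groups it remained higher by 1.15 in Prom1, 1.10 in Alpl, 0.92 in Sox18, 0.72 in Foxd1 and 0.40 in Corin, but by 0.07 in Sox2. Among 31 other condensate and papilla genes it was the lowest in 23, or 74.2%, and the replicates 3 of CD26+ and Dlk1+Sca1+ were the lowest of their groups in 58.1% and 61.3%. For Dlk1+Sca1-, replicate 3 was the lowest in 32.1% of all 22180 genes, close to replicate 1 at 33.2% and replicate 2 at 34.7%, and the replicates 3 of CD26+ and Dlk1+Sca1+ were so in 35.4% and 37.4%. The low values on these arrays thus did not extend to all genes. On Dlk1+Sca1- replicate 3, Acta2 was also lower (8.78 against 10.57 and 10.55), as was Ednrb (7.67 against 9.63 and 9.51). Whether the arrays numbered 3 share a cause was not tested.

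**Figure D3:**
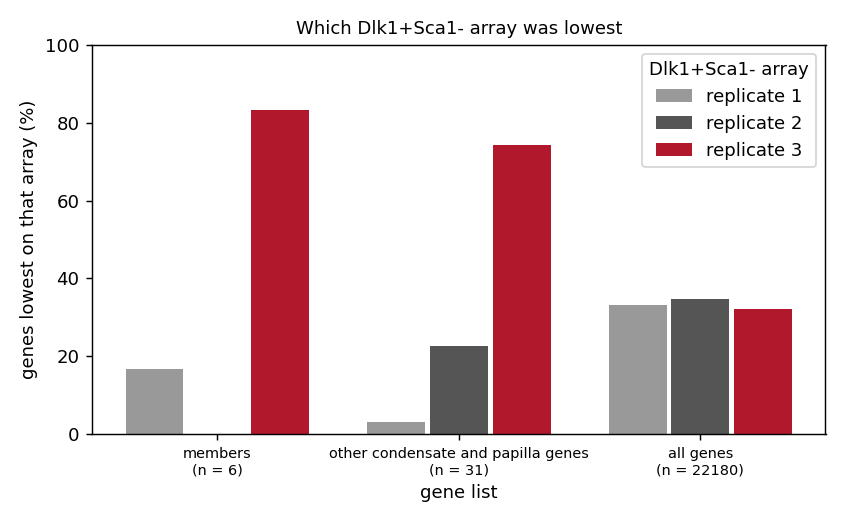
Percent of genes (y axis) that had their lowest Dlk1+Sca1- value on replicate 1, 2 or 3, for the 6 genes, 31 other condensate and papilla genes and all 22180 genes (x axis). Replicate 3 holds 83.3% of the 6 genes and 74.2% of the other list, but 32.1% of all genes.

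Without replicate 3, an array set aside after its values were seen, Sox2 passed in all 3 comparisons. Its log2 difference became 1.73 ± 0.28 (SE) from CD26+ (limma adjusted p = 0.00778), 1.67 ± 0.28 from Dlk1+Sca1+ (adjusted p = 0.00895) and 1.74 ± 0.30 from Dlk1-Sca1+ (adjusted p = 0.0193). Corin then passed against Dlk1+Sca1+ (1.16 ± 0.20, adjusted p = 0.0115) and Dlk1-Sca1+ (1.21 ± 0.22, adjusted p = 0.0239) but not CD26+ (0.85 ± 0.20, adjusted p = 0.0692). Foxd1 no longer passed against Dlk1+Sca1+ (1.09 ± 0.27, adjusted p = 0.082). In this fit 0.564% of all genes were higher in Dlk1+Sca1- than in CD26+, 0.834% than in Dlk1+Sca1+ and 0.401% than in Dlk1-Sca1+. Replicates 1 and 2 lay above every fitted array of the other groups in 5 of the 6 genes, all but Foxd1, an order seen in 3.65% of all genes. With a pair of arrays left in the group, these values rest on the spread shared by all groups.

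The 6 genes varied together over the 12 arrays to unequal degrees. Pearson's r, given as a description over arrays that share their groups, was 0.95 for Alpl and Corin, 0.89 for Prom1 and Alpl, 0.87 for Sox2 and Corin, and 0.84 each for Sox2 and Alpl and for Sox18 and Prom1. Foxd1 was the least alike, with r from 0.27 (Sox2) to 0.64 (Alpl). After each group's mean was subtracted, r was 0.79 for Alpl and Corin and 0.86 for Sox2 and Alpl, so that they also deviated together within groups, but these values rested in part on Dlk1+Sca1- replicate 3. Without that array r fell to 0.45 and 0.58 (11 arrays), while Sox18 and Prom1 went from 0.80 to 0.71. Over the 12 arrays Foxd1 had within-group r of -0.34 with Sox2, -0.32 with Alpl and 0.26 with Prom1. Without Dlk1+Sca1- replicate 3, r over all groups was 0.95 for Alpl and Corin and 0.90 for Sox2 and Alpl.

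The genes with the most alike patterns were sought for each of the 6 among 3921 genes with a mean above the median gene and a range of at least 1 log2 unit. For Alpl they were Bmp7 (r = 0.98 over 12 arrays), Prex2 (0.97) and Corin (0.95), and for Corin they were Alpl (0.95), Bmp7 (0.95) and Prex2 (0.94). Bmp7, a secreted bone morphogenetic protein, gave log2 values of 8.78, 8.60 and, on replicate 3, 7.72 in Dlk1+Sca1-, and 6.14 to 7.46 on the other arrays. It was also the second gene for Sox2 (0.89), after the clock-linked repressor Bhlhe41 (0.90) and before the GDNF receptor Gfra1 (0.87). For Sox18 they were the collagen gene Col11a1 (0.95), smooth muscle actin Acta2 (0.93) and Pdlim3 (0.92), a gene for an actinin-binding protein. Col11a1 was 8.46, 8.67 and 6.66 in Dlk1+Sca1- and, like Sox18, next highest in Dlk1-Sca1+ at 6.81 and 6.36, with CD26+ and Dlk1+Sca1+ at 5.01 to 5.79. Prom1 was most like the homeobox gene Alx4 (0.92), Bmp3 (0.91) and Dock6 (0.91), and Foxd1 most like Rlf (0.92), Unc5b (0.87) and F11r (0.86).

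**Figure D4:**
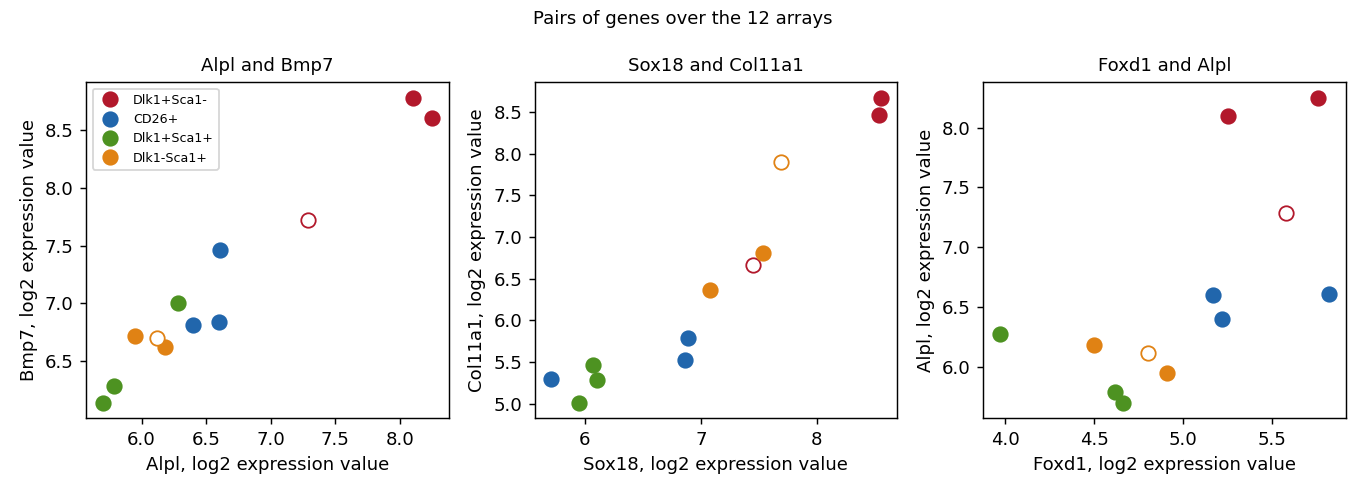
Log2 expression values of a pair of genes on the x and y axes, with 1 point per array (12) coloured by population; open points are Dlk1+Sca1- replicate 3 and the Dlk1-Sca1+ array left out of the fit. Alpl and Bmp7 fall along a line (r = 0.98), as do Sox18 and Col11a1 (r = 0.95), while Foxd1 and Alpl part in CD26+ (r = 0.64).

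Other genes of the condensate and papilla set Dlk1+Sca1- apart from Dlk1+Sca1+ more often than from CD26+ by count, a contrast that was not itself tested. Of 31 measured genes on that list (32 listed), none was higher in Dlk1+Sca1- than in CD26+. Only 1 was lower, Dkk2 (-1.35 ± 0.25, limma adjusted p = 0.0186), which encodes a Wnt antagonist. In either direction 15 had an unadjusted p under 0.05, a cut at which the share of all genes was not counted. The list's median difference was 0.02 against 1.26 for the 6 genes. Against Dlk1+Sca1+, 9 were higher and none lower: Trps1, Cxcr4, Lef1, Inhba, Sostdc1, Rspo3, Crabp1, Spon1 and Itga8, with a list median of 0.62. Inhba, which encodes the activin A subunit, had the largest of these differences (2.88 ± 0.48, adjusted p = 0.0169), with log2 values of 7.19, 7.42 and 5.48 in Dlk1+Sca1- and 3.41 to 4.50 in Dlk1+Sca1+. Lef1, which encodes a Wnt effector of the condensate, was 8.44, 8.29 and 7.47 in Dlk1+Sca1- and 8.29, 8.35 and 7.81 in CD26+, so the groups overlapped (difference -0.09 ± 0.27, adjusted p = 0.935). Against Dlk1-Sca1+, Fgf7 and Itga8 were higher and none was lower (list median 0.24). Of all genes, 0.442%, 0.586% and 0.248% were higher in Dlk1+Sca1- than in CD26+, Dlk1+Sca1+ and Dlk1-Sca1+, and 0.654% were lower than in CD26+. All 3 Dlk1+Sca1- arrays lay above every other fitted array in 2 of the 31 genes, compared with 3 of the 6 and 1.48% of all genes.

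By count, CD26+ differed from Dlk1+Sca1+ in more genes of that list than from Dlk1+Sca1- or Dlk1-Sca1+. In CD26+ against Dlk1+Sca1+, 11 were higher and 3 lower, where 2.05% of all genes were higher and 1.68% lower. The higher genes were Trps1, Hey1, Lef1, Bmp4, Sostdc1, Rspo3, Crabp1, Ncam1, Spon1, Itga8 and Dkk2, and the lower were Fgf7, Fgf10 and Vcan. Each of the 11 higher genes had its lowest group mean in Dlk1+Sca1+. For Trps1 it was 6.89 there, against 8.89 in Dlk1+Sca1-, 9.50 in CD26+ and 9.19 in Dlk1-Sca1+. The list's median was 0.55 against 0.38 for the 6 genes. Bmp4, a secreted signal of the condensate, was higher by 1.78 ± 0.34 (log2, SE; adjusted p = 0.0117), whereas Vcan, a proteoglycan of the papilla, was lower by a log2 difference of -0.58 ± 0.09 (adjusted p = 0.00329). By limma none passed between CD26+ and Dlk1-Sca1+. In either direction 5 had an unadjusted p under 0.05, with no share of all genes counted at that cut. Dlk1+Sca1+ was lower than Dlk1-Sca1+ in 7 of the 31 genes and higher in Fgf7, against 0.649% and 0.537% of all genes. Among the 7 were Dkk1 (-1.68 ± 0.26, adjusted p = 0.00723) and Wif1 (-0.86 ± 0.17, adjusted p = 0.0274). Tbx18, an early condensate factor, passed in none of the 6 comparisons, with group means of 6.38 to 7.14. In all, 18 of the 31 passed in at least 1 comparison. The share of all genes that did so was not counted, so this count has no background.

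**Figure D5:**
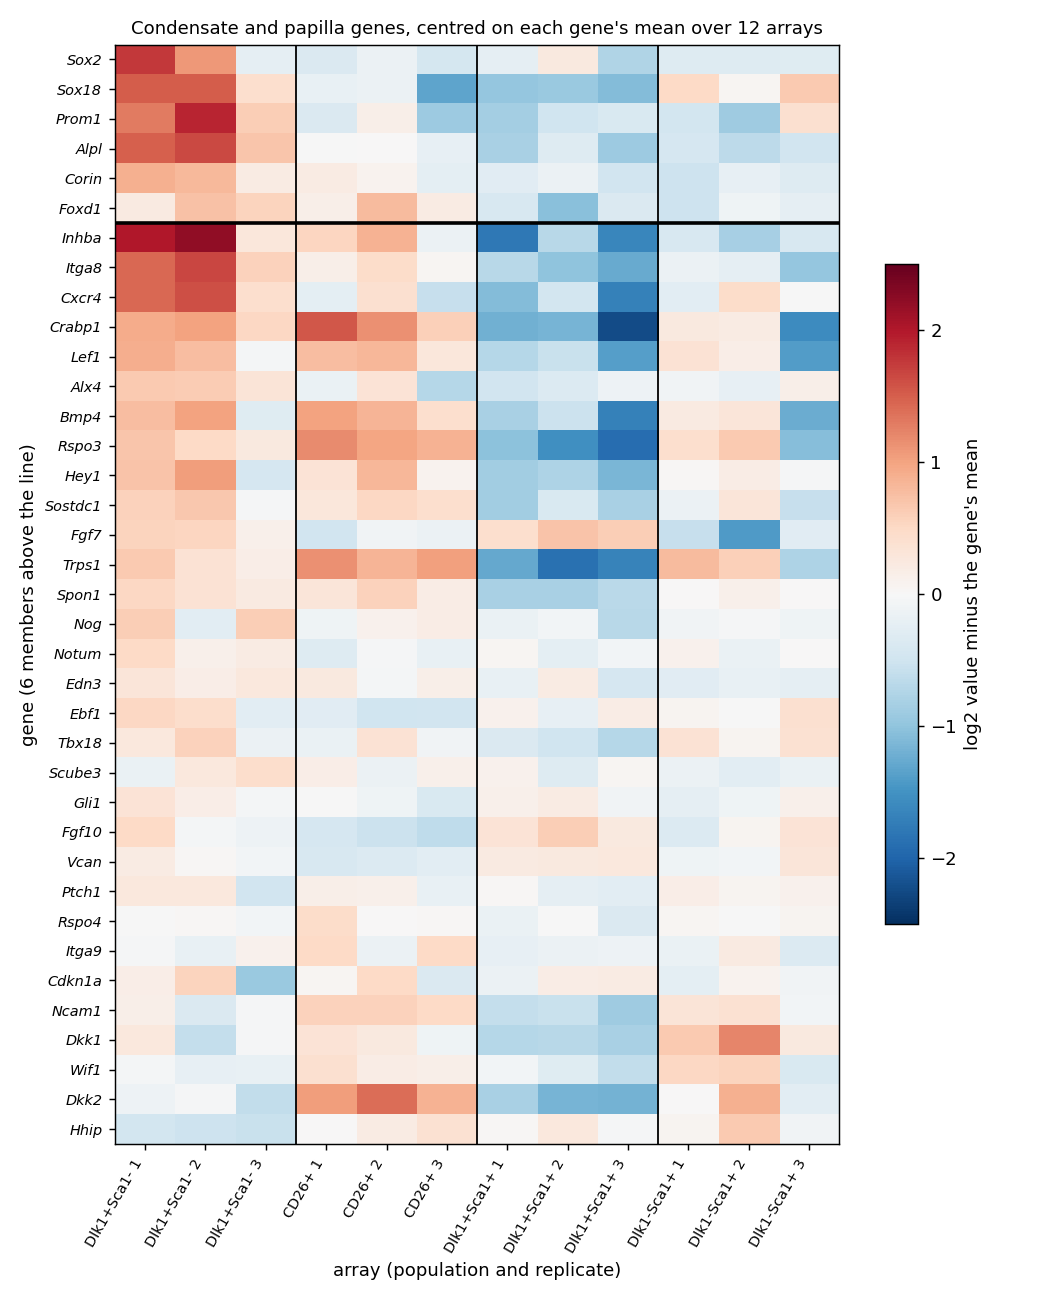
Log2 value minus the gene's mean over the 12 arrays (colour) for the 6 genes, above the thick line, and 31 other condensate and papilla genes, ordered by their Dlk1+Sca1- level (y axis), on each array (x axis). The 6 genes are red in the Dlk1+Sca1- columns except Sox2 on replicate 3 (3.44), which lies below its mean. Genes such as Trps1, Rspo3 and Dkk2 are at their highest in CD26+.

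Some relatives and partners of the 6 genes passed the threshold. Of 15 measured Sox and Fox relatives, Sox11 alone passed, and only in Dlk1+Sca1- against Dlk1+Sca1+ (1.05 ± 0.19, limma adjusted p = 0.017). In that comparison 0.586% of all genes were higher. Sox7 and Sox17, which encode the closest relatives of Sox18, passed in no comparison, with differences between Dlk1+Sca1- and the other groups of -0.15 to 0.27. Of 7 measured alkaline phosphatase and mineral genes, Mgp was higher in Dlk1+Sca1- than in CD26+ (1.62 ± 0.31, adjusted p = 0.0277). Mgp, which encodes an inhibitor of calcification, was also higher there than in Dlk1-Sca1+ (2.25 ± 0.35, adjusted p = 0.0148). In these comparisons 0.442% and 0.248% of all genes were higher in Dlk1+Sca1-. Sp7 of that list was 5.86 to 6.85 in Dlk1+Sca1- and 4.70 to 5.84 on the fitted arrays elsewhere, with differences that did not pass. Nt5e, which encodes the ectoenzyme CD73, was higher in CD26+ than in Dlk1+Sca1- (-1.05 ± 0.19 for Dlk1+Sca1- minus CD26+, adjusted p = 0.0172). It was also higher in CD26+ than in Dlk1+Sca1+ (1.05 ± 0.19, adjusted p = 0.00593). Of all genes, 0.654% were lower in Dlk1+Sca1- than in CD26+. Of 11 measured Corin substrates, receptors and pigment genes, the natriuretic peptide receptor gene Npr1 was lower in CD26+ than in Dlk1+Sca1+ (-0.95 ± 0.22, adjusted p = 0.0301). Agouti, listed as a, was higher there (1.03 ± 0.26, adjusted p = 0.0425). In CD26+ against Dlk1+Sca1+, 1.68% of all genes were lower and 2.05% higher. The Prom1 relative Prom2 passed in no comparison.

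Some of the 6 genes are also expressed by other cell types of the skin, whose markers were measured on the same arrays. The mean log2 value of 12 endothelial markers was 5.08 to 5.30 in Dlk1+Sca1- and 4.94 to 5.32 in the other groups, and Pecam1 was 5.37, 5.37 and 5.27 in Dlk1+Sca1-. Cdh5, also endothelial, was 6.76, 7.22 and, on replicate 3, 5.54 in Dlk1+Sca1- against 5.06 to 6.44 elsewhere, and its part in the Sox18 result was not tested. The Cdh5 differences of Dlk1+Sca1- from the other groups did not pass (adjusted p 0.32 to 0.685). Kdr, which encodes a VEGF receptor of endothelium, was 6.25, 6.13 and 5.62 in Dlk1+Sca1-, each above the highest fitted array elsewhere (5.54), with differences short of the threshold (0.83 to 1.03, adjusted p 0.0612 to 0.209). Tek, an angiopoietin receptor gene, was the only marker of this list called in Dlk1+Sca1-, where it was lower than in Dlk1+Sca1+ (-1.55 ± 0.25, adjusted p = 0.00976). In that comparison 0.649% of all genes were lower in Dlk1+Sca1-. For Sox2, the mean of 8 measured Schwann cell markers was 4.94 to 5.08 in Dlk1+Sca1- and 4.75 to 5.13 elsewhere, with Sox10 at 4.73, 5.02 and 5.25. Fabp7 of that list was 4.90, 4.53 and 4.58 in Dlk1+Sca1-, each above every fitted array elsewhere (highest 4.32), with differences that did not pass (0.53 to 0.82, adjusted p 0.0915 to 0.207). That of 6 Merkel cell markers was 5.19 to 5.56 in Dlk1+Sca1- and 4.98 to 5.32 elsewhere, with Atoh1 at 4.60, 4.59 and 5.07 and Krt20 at 5.28, 5.71 and 5.09. Isl1 of that list was 7.17, 5.24 and 7.20 on the Dlk1+Sca1- arrays and 4.37 to 5.75 on the fitted arrays elsewhere. The part of Schwann or Merkel cells in the Sox2 values was not tested. Of 10 pericyte and smooth muscle markers, Mcam and Tagln passed in Dlk1+Sca1- against Dlk1+Sca1+, where both were higher, as were 0.586% of all genes. The list's mean was 6.84 to 7.48 in Dlk1+Sca1- and 6.55 to 7.07 elsewhere. In Dlk1+Sca1-, Rgs5 was 5.57, 5.74 and 5.68 and Myh11 was 6.04, 6.10 and 5.80. Acta2 of that list was 8.78 to 10.57 in Dlk1+Sca1- and 8.02 to 9.25 on the fitted arrays elsewhere. Kcnj8 and Abcc9 had lower means in Dlk1+Sca1- (6.73 and 6.72) than in Dlk1+Sca1+ (7.58 and 7.04). Des had a lower mean in Dlk1+Sca1- (6.78) than in CD26+ (7.49). Neither these differences nor those of Acta2 passed. The part of pericytes or smooth muscle cells in the Alpl and Sox18 results was not tested.

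Among the remaining lists, 11 keratinocyte markers had means of 5.1 to 5.4 in Dlk1+Sca1-. On CD26+ replicates 1, 2 and 3 the means were 5.01, 6.02 and 6.23, and Krt14 reached 8.33 on replicate 3. Krt17 alone of this list was called, higher in CD26+ than in Dlk1+Sca1+ (means 7.34 and 4.99, limma adjusted p under 0.05). In that comparison 2.05% of all genes were higher in CD26+. The part of keratinocytes in the CD26+ results was not tested. The 8 melanocyte markers had means of 5.68 to 5.85 in Dlk1+Sca1- and 5.28 to 5.92 elsewhere, with Dct at 5.30, 5.14 and 5.87 and Tyr at 3.49, 3.39 and 3.69. Ednrb, which encodes an endothelin receptor, was the only melanocyte marker called: it was 9.63, 9.51 and, on replicate 3, 7.67 in Dlk1+Sca1- and 5.82 to 6.60 in Dlk1+Sca1+ (2.72 ± 0.46, adjusted p = 0.018), with 7.28 to 8.19 on the other fitted arrays. The part of melanocytes in these results was not tested. Leukocyte markers (9 measured) were at 4.62 to 4.90 in Dlk1+Sca1- and 5.30 to 5.49 in Dlk1+Sca1+, with Ptprc at 3.07 to 3.20 and Tyrobp at 5.28 to 5.42 in Dlk1+Sca1-. Skeletal muscle markers (8) were at 5.62 to 5.68 in Dlk1+Sca1- and 5.34 to 5.75 elsewhere, with Myod1 up to 6.17 and Acta1 at 6.21 to 6.72.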

How the data were processed

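RNA of 12 samples was hybridised to Affymetrix Mouse Gene 2.0 ST arrays, and the log2 expression values were used as deposited by the authors. The submitters' processing notes name mm10 (summary and normalisation methods: not given in the sources used here). Array medians were 5.38 to 5.51, so nothing was rescaled. For each gene the probe set with a single symbol and the highest mean was kept (22180 genes of 41345 probe sets). Alpl had 2 such probe sets and the other 5 genes 1 each.

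The 6 genes and all lists were chosen with earlier results of these data known. Dlk1-Sca1+ replicate 3 was left out because it had the most Dlk1 of its group (8.69) and was more like Dlk1+Sca1+ (mean r 0.06 over gene-centred values) than like its own group (-0.07). The 4 groups were fitted together in limma 3.58.1 (R 4.3.3, statmod 1.5.0; eBayes with trend and robust; 7 residual degrees of freedom), with two-sided Benjamini-Hochberg adjusted p-values over all genes per comparison and a threshold of 0.05. The script was tested on simulated data. The labels call samples biological replicates, and the study speaks of different mice.

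Named were the 6 genes, and Lef1, Tbx18, Bmp4 and Vcan. So were genes of the condensate and papilla, relative and partner lists called in at least 1 comparison. That rule did not cover the cell type markers, so some called markers are not named. Also named were 2 defining markers per cell type where measured and the 3 most alike genes per member. The markers Thy1, Isl1, Kdr, Tek, Fabp7, Ednrb, Acta2, Mcam, Tagln, Kcnj8, Abcc9, Des and Krt17 were named after their values were seen. So were the gate gene Dpp4 and Sox7, Sox17, Sp7 and Prom2. Alternatives were all 12 arrays, each array left out, median centring, quantile normalization, no 40% dimmest genes, plain eBayes, only the groups compared, the mean over probe sets and a replicate block. Promoter windows are from RefSeq (GRCm38.p6).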

Additional observations from a re-analysis of the deposited data

How the results depend on the processing

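The count of the 6 genes called depended mainly on which arrays were fitted. With each array left out in turn it ran from 0 to 4 in Dlk1+Sca1- against CD26+ (3 with all 11), 1 to 5 against Dlk1+Sca1+ (4), 0 to 4 against Dlk1-Sca1+ (2) and 0 to 1 in CD26+ against Dlk1+Sca1+ (1). The count of all genes called ran over the same fits from 61 to 265 (243 with all 11), 99 to 355 (274), 20 to 175 (131) and 426 to 967 (826), from 8 to 25 (19) in CD26+ against Dlk1-Sca1+ and from 83 to 351 (263) in Dlk1+Sca1+ against Dlk1-Sca1+. The lows of 0, 20 and 83 against Dlk1-Sca1+ came from fits that left that group 1 array, assumed to vary like the other groups. In Dlk1+Sca1- against Dlk1-Sca1+, the lows without those fits were 1 of the 6 genes and 51 of all genes. Fits to only the groups compared, which have fewer samples, called 0 of the 6 genes in Dlk1+Sca1- against CD26+, 0 against Dlk1-Sca1+ and 0 in CD26+ against Dlk1+Sca1+, but 1, Sox18, in Dlk1+Sca1+ against Dlk1-Sca1+, and called 109, 118 and 26 of all genes in Dlk1+Sca1- against CD26+, Dlk1+Sca1+ and Dlk1-Sca1+. With all 12 arrays, Prom1 lost its call against CD26+ (adjusted p = 0.0703) and Dlk1-Sca1+ (0.0976), which left 2 and 1 of the 6 genes called, and all genes called were 137 in Dlk1+Sca1- against CD26+, 29 in CD26+ against Dlk1-Sca1+ and 88 in Dlk1+Sca1+ against Dlk1-Sca1+. Leaving out the 40% dimmest genes removed Sox2 and Foxd1, so 0 remained in CD26+ against Dlk1+Sca1+. Corin passed against Dlk1+Sca1+ under all 12 arrays (adjusted p = 0.0481), quantile normalization (0.0432) and the filter (0.0348), while Foxd1 missed the threshold there under median centring (0.051) and plain eBayes (0.052). The mean over probe sets gave Alpl 1.09, 1.51 and 1.47 in the 3 Dlk1+Sca1- comparisons, all called. No called difference turned its direction. Over all genes, same-numbered arrays did not deviate together (r -0.046 to 0.145), so the numbers were not treated as pairs. That measure does not single out the 6 genes. Among them, replicate 3 was the lowest of its group in 5 in Dlk1+Sca1-, 5 in CD26+ and 4 in Dlk1+Sca1+. For Dlk1+Sca1- against CD26+, a replicate block took the limma adjusted p from 0.032 to 0.00469 for Sox18 and from 0.234 to 0.0884 for Sox2. With the replicate block, 3, 5 and 3 of the 6 genes were called against CD26+, Dlk1+Sca1+ and Dlk1-Sca1+ (Corin gained in the last 2, adjusted p = 0.0193 and 0.029), and it changed no other call. Dim signals, Sox2's above all, limit the size of its differences, and the number of arrays limits their precision.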

Other observations

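The Dlk1-Sca1+ array left out of the fits, replicate 3, gave log2 values of 3.35 for Sox2, 7.69 for Sox18, 5.70 for Prom1, 6.12 for Alpl, 5.96 for Corin and 4.80 for Foxd1. It lay above both other Dlk1-Sca1+ arrays in Sox18, Prom1 and, by a margin at the second decimal, Sox2. It also had Col11a1 at 7.90 against 6.81 and 6.36, and Acta2 at 10.25 against 9.25 and 8.82, both genes whose pattern over the arrays was like that of Sox18. Lef1 was 6.12 against 7.88 and 7.69, and Crabp1 6.38 against 8.20 and 8.16. Its Lef1 value was below those of the Dlk1+Sca1+ arrays (6.82, 6.97 and 6.15).

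Prex2, the gene for a guanine nucleotide exchange factor of Rac, was among the 3 most alike genes of both Alpl and Corin and had larger differences than either. It gave 9.35, 9.41 and, on replicate 3, 8.08 in Dlk1+Sca1-, and was higher there than in CD26+ by 1.94 ± 0.34 (log2, SE; limma adjusted p = 0.0179), than in Dlk1+Sca1+ by 3.29 ± 0.34 (adjusted p = 0.000678) and than in Dlk1-Sca1+ by 2.44 ± 0.38 (adjusted p = 0.015). Unlike Alpl and Corin, it also passed between CD26+ and Dlk1+Sca1+ (1.35 ± 0.34, adjusted p = 0.048), but the difference between these genes was not tested. It was picked as a neighbour of Alpl and Corin in these data, so its differences follow in part from that choice.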
